A study of Mus musculus with 12 samples.

Results

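The genes described here are 10 transcripts that the growing mouse oocyte makes: Dppa3, Nlrp5, Zar1, Padi6, Gdf9, Bmp15, Zp3, Mos, Npm2 and Oosp1. They were chosen by name, and every probe set paired with exactly 1 of them was taken. Of the 10 genes, 9 had a probe set, 11 probe sets in all, out of 18193 genes with a probe set on the array. Npm2, the histone chaperone of the egg that decondenses sperm chromatin, had no probe set paired with it and is not analysed here.

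An oocyte stores RNA and protein that carry the embryo through fertilisation and its first divisions, and genes whose maternal product the embryo needs are called maternal-effect genes. Most stored mRNA is degraded around the time when the mouse embryo starts its own transcription, well before the blastocyst forms. Some of these genes are transcribed again by the embryo, so a signal in the blastocyst can be maternal or embryonic RNA, and the array cannot tell them apart. The blastocyst, the stage just before implantation, consists of an inner cell mass surrounded by trophectoderm.

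The 12 arrays carried total RNA of mouse blastocysts, 4 from embryos cultured in Ca-free medium, 4 from embryos treated by 20 Ca2+ pulses and 4 from control embryos that the labels call normal. The study's title concerns the Ca2+ oscillations of the fertilised egg. The sources used here do not give the strain, the age of the embryos, how many were pooled, what a pulse consisted of or how long Ca2+ was withheld. No label states that replicates came from separate embryo collections, and the spread behind each p-value may therefore be technical. In a sample of whole embryos, fewer cells of a type and less RNA per cell cannot be told apart.

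Signals are MAS5 intensities scaled so that the 2% trimmed mean of each array is 500. A signal was called above background on an array where it passed the 95th percentile of 87 probe sets for olfactory, vomeronasal and taste receptors, genes that an early embryo is not known for. The threshold was 199 to 221 on the Ca-free arrays, 271 to 346 on those of 20 pulses and 324 to 348 on those of control. The median of all probe sets, on the deposited scale, was also lower in Ca-free medium: 38.3 to 39.2 there, 47.4 to 53.7 after 20 pulses and 49.4 to 53.05 in control. Probe sets differ in how well they bind, so a signal under the threshold means only that the transcript was not detectable this way.

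Of blastocyst markers, 17 of 20 genes were above background on all 12 arrays, among them Pou5f1, Nanog and Cdx2. The 3 others were Fgf4, on 8 arrays, and Gata4 and Lama1, on none. Markers of sperm and testis (12 genes with a probe set) and of blood (6 genes) were above background on all 4 arrays of no group. Of 40 tissue-restricted genes, such as those of liver, lens and muscle, 5 were above background on all 12 arrays. On all 4 arrays of a group there were 7 in Ca-free medium, 5 after 20 pulses and 6 in control. The threshold thus also let through some genes that an early embryo is not known for. Of 11 oviduct and uterus genes, Krt5 alone was above background on all 4 arrays of a group, in control. Of 13 genes of granulosa and cumulus cells, which surround the oocyte, Inha, Amhr2 and Nr5a2 were above background on all 12 arrays, and Nr5a2 is also a gene of the early embryo, while Amhr2 passed with 2 of its 3 probe sets. Counted by group, 3 genes of this list were above background on all 4 arrays in Ca-free medium, against 4 after 20 pulses and 4 in control. The follicle hormone Amh, the receptor Fshr and the cumulus matrix genes Has2, Tnfaip6 and Ptx3 were above background on 0 arrays. The summed signal of the granulosa and cumulus list was 10689 to 12651 in Ca-free medium, 10752 to 11457 after 20 pulses and 10830 to 11866 in control, and its part in the results below was not tested.

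The members above background on all 12 arrays were Dppa3, Oosp1 and Zar1. In Ca-free medium 4 of the 11 member probe sets were above background on all 4 arrays, against 32.6% of all 45037 probe sets. After 20 pulses there were 3 of 11, against 29.1% of all, and in control also 3 of 11, against 28.0%. On all 12 arrays together the share of all probe sets was 26.5%, so the members' share was near that of the array as a whole. Bmp15 and Mos were above background on no array, and Padi6, Gdf9, Zp3 and Nlrp5 on some. Nlrp5 was at 0.457 to 0.560 of the threshold after 20 pulses and at 0.460 to 0.528 in control.

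**Figure D1:**
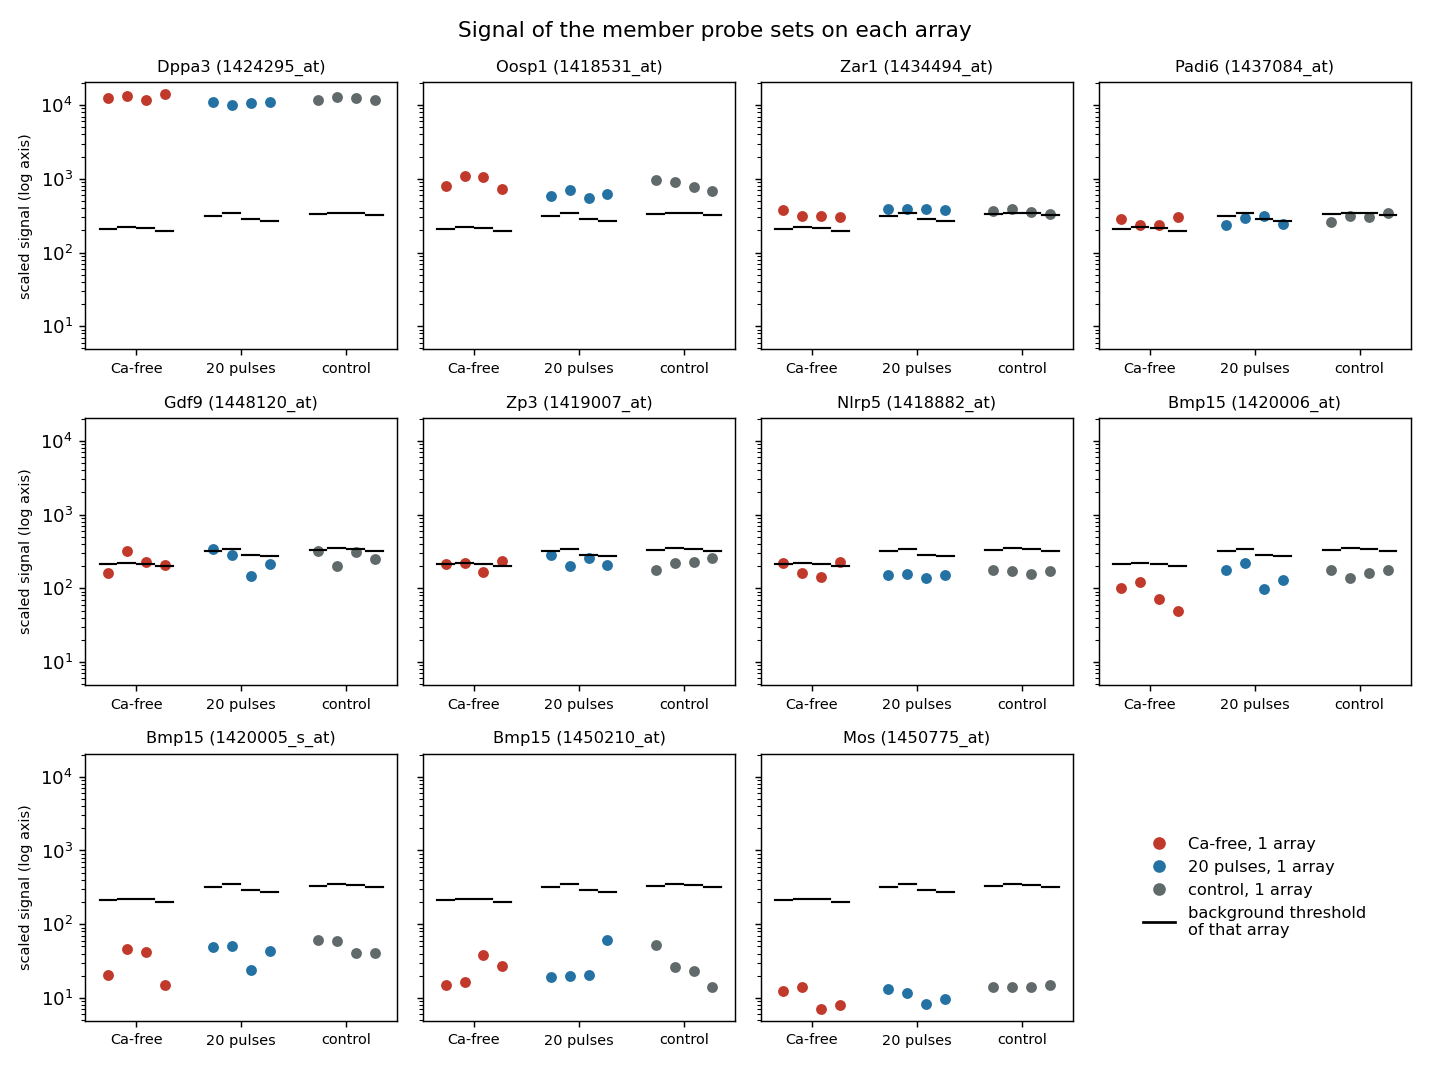
Scaled signal (log axis) of each of the 11 member probe sets on each array, in Ca-free medium, after 20 pulses and in control, with the background threshold of the same array as a short black line. Dppa3 and Oosp1 lie clear of the line on all 12 arrays, Zar1 just above it, and Bmp15 and Mos below it.

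RefSeq promoters of the GRCm38.p6 build, from 250 bases before to 50 bases after an annotated start, were at hand for 6 of the 10 genes. Of the members above background on all 12 arrays, Oosp1 and Zar1 had an entry, and both are shown with Zp3, an egg coat gene that was not above background in control. Capitals mark the E-box (letters CANNTG, the same on both strands), the motif through which the oocyte factor FIGLA acts on zona pellucida genes in the mouse.
Oosp1, chr19:11691002-11691301, minus strand: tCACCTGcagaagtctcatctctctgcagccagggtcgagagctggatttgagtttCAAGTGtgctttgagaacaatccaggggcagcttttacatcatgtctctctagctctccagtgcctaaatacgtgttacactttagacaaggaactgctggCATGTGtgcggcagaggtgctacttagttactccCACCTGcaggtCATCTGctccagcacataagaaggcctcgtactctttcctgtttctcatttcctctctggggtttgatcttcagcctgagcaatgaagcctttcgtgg
Zar1, chr5:72581035-72581334, minus strand: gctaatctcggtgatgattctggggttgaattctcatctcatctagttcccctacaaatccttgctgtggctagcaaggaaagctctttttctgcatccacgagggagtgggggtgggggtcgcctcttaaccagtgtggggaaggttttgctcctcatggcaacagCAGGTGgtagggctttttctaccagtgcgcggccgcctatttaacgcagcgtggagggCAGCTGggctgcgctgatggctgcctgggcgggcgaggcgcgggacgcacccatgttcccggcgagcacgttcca
Zp3, chr5:135979855-135980154, plus strand: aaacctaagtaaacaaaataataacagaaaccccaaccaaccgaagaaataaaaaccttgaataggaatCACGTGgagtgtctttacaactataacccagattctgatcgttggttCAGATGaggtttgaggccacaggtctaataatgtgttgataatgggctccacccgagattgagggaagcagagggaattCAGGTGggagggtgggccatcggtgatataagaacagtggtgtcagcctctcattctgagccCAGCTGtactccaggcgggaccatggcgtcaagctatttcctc
The E-box occurred 5 times in Oosp1, 2 times in Zar1 and 4 times in Zp3. Of all 32851 promoters of 300 bases in the table, 72.3% held at least 1 and 17.6% held 3 or more. The element of the oocyte homeobox factor NOBOX (TAATTG or TAATTA, both strands) was in none of these 3 windows. It occurred 1 time each in the promoters of Padi6 and Bmp15 and in 1 of 2 entries of Nlrp5, and in 12.4% of all promoters. Zar1 held 17 CpG dinucleotides, Oosp1 5 and Zp3 7, against a median of 7. A match of letters describes these windows and says nothing of binding.

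Dppa3 (also Stella or PGC7) is a maternal-effect protein that shields DNA methylation of the maternal genome in the zygote, and the gene is also a marker of pluripotent cells and germ cells. Its probe set read 12499, 13306.5, 11790.0 and 13943 in Ca-free medium, 11142, 10004, 10808 and 10993 after 20 pulses, and 11806, 12818, 12589 and 11847 in control. Every array after 20 pulses lay below every array of the other groups. Against the threshold of the same array the signal was 54.4 to 70.2 times as high in Ca-free medium, 28.9 to 40.6 times after 20 pulses and 35.7 to 37.1 times in control. The threshold itself was lower in Ca-free medium (199 to 221, against 324 to 348 in control), while the signals of these groups overlapped.

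Oosp1, a secreted protein of the oocyte, read 793, 1089, 1056 and 733 in Ca-free medium, 591, 697, 554 and 632 after 20 pulses, and 968, 891, 765 and 682 in control. All Ca-free arrays were above all arrays of 20 pulses, while the control range overlapped both. The arrays' control probe sets, whose 3'/5' ratios reflect RNA integrity, also differed between the groups. The 3'/5' signal ratio of Gapdh was 2.89 to 5.05 in Ca-free medium, 5.70 to 7.58 after 20 pulses and 5.76 to 8.90 in control. That of Actb was 1.690 to 1.884 in Ca-free medium, 1.492 to 1.685 after 20 pulses and 1.586 to 2.688 in control. Ca-free medium was thus below 20 pulses in the Gapdh ratio and above it in the Actb ratio. The signal of 18S rRNA was 4003 to 5780 in Ca-free medium, 2653 to 3688 after 20 pulses and 878 to 2559 in control. Within Ca-free medium, arrays 1 and 4 were lower in Oosp1 and had the higher Gapdh ratio (5.05 and 4.73, against 3.10 and 2.89), while the Actb ratio did not separate them (1.78 and 1.88, against 1.88 and 1.69). Controls 3 and 4 were lower in Oosp1 and had the higher ratios of Actb (2.69 and 2.64, against 1.59 and 1.67) and of Gapdh (7.62 and 8.90, against 6.28 and 5.76). After 20 pulses Oosp1 was lowest on array 3, which had the lowest Gapdh ratio of that group (5.70). The part of these measures in the signals of Oosp1 and Dppa3 was not tested.

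Zar1, an RNA-binding protein needed for the step from oocyte to embryo, read 373, 311, 316 and 305 in Ca-free medium, 390.3, 387, 389.5 and 376 after 20 pulses, and 369, 386, 358 and 330.4 in control. Signal over threshold was 1.41 to 1.76 in Ca-free medium, 1.12 to 1.39 after 20 pulses and 1.02 to 1.11 in control, so control embryos were hardly above it. The higher ratio in Ca-free medium went with a lower threshold (199 to 221, against 324 to 348 in control). The mean signal of Zar1 was not higher there (326 ± 31.7, against 386 ± 6.78 after 20 pulses and 361 ± 23.3 in control, SD, n = 4 each). With the 95th percentile of 63 probe sets of tissue-restricted genes (such as those of liver, lens and muscle) as the threshold, Zar1 was above it on 0 arrays, while Dppa3 and Oosp1 stayed above it on all 12.

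Padi6 and Nlrp5 encode proteins of the cytoplasmic lattices and the subcortical maternal complex, a structure under the egg membrane that early cleavage depends on. Padi6 read 283, 236, 236 and 299.6 in Ca-free medium, 238, 290.03, 315 and 247 after 20 pulses, and 262, 313, 301 and 346 in control. It was thus above background on all 4 Ca-free arrays, on 1 array of 20 pulses and on 1 of control, although its mean signal was not higher in Ca-free medium (264 ± 32.5, against 273 ± 36.3 after 20 pulses and 306 ± 34.4 in control; SD, n = 4 each). Nlrp5 read 219, 163, 144 and 226 in Ca-free medium, 152, 158, 139.98 and 152 after 20 pulses, and 175, 172, 156 and 170.1 in control. It passed the threshold on Ca-free arrays 1 and 4 only.

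Gdf9 and Bmp15 are growth factors of the TGF-beta family that the oocyte secretes to act on the cells around it. Gdf9 read 162, 317, 229 and 207 in Ca-free medium, 345, 279, 147 and 217 after 20 pulses, and 324, 199.7, 311 and 251 in control. It was above background on 3 Ca-free arrays, on 1 of 20 pulses and on 0 of control, although its mean signal was not higher in Ca-free medium. Gdf9 averaged 229 ± 65.2 there, 247 ± 84.7 after 20 pulses and 272 ± 57.7 in control (SD, n = 4 each). The brightest of 3 Bmp15 probe sets read 100.3, 122, 70.7 and 49.9 in Ca-free medium, 178, 222, 96.5 and 128 after 20 pulses, and 177, 138, 160.1 and 177 in control. Its Ca-free arrays were below all control arrays, and no array of any group reached the threshold. The other Bmp15 probe sets averaged 31.0 and 24.1 in Ca-free medium, 41.6 and 30.4 after 20 pulses, and 50.6 and 29.0 in control.

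Zp3, the egg coat protein that sperm bind, read 215, 223, 167 and 232 in Ca-free medium, 285, 204, 257 and 206 after 20 pulses, and 179.5, 223, 227 and 255 in control. It was above background on 3 Ca-free arrays and on none of the others, although its mean signal was not higher in Ca-free medium. Zp3 averaged 209 ± 29.3 there, 238 ± 39.9 after 20 pulses and 221 ± 31.0 in control (SD, n = 4 each). Mos, the kinase that holds the mature egg in meiosis, averaged 10.4 ± 3.39 in Ca-free medium, 10.7 ± 2.12 after 20 pulses and 14.3 ± 0.317 in control (SD, n = 4 each), far below the threshold on every array. No fold change is given for probe sets under background in both groups.

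The comparisons between groups used limma across 27808 probe sets, those whose mean signal reached 100, on log2 of the signal plus 32, with Benjamini-Hochberg adjustment over all of them and adjusted p under 0.05 as the threshold. Of the 11 member probe sets, 8 passed this minimum, and the remaining 3 (Mos and both dimmer Bmp15 probe sets) were not tested. The 3 comparisons share arrays with each other, so they are not independent. In the main setting Padi6, Gdf9, Nlrp5 and Zp3 were called in none of them, with adjusted p by limma from 0.173 to 0.819. That did not hold under other scalings. Under quantile normalization 1 member probe set was called higher in Ca-free medium against control. Dppa3, Oosp1, Zar1 and Bmp15 were not called there, so it belonged to Padi6, Gdf9, Nlrp5 or Zp3. Under median scaling and hybridization control scaling too, both comparisons of Ca-free medium held calls among these genes.

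In Ca-free medium against 20 pulses, Dppa3 and Oosp1 were called higher and the brightest Bmp15 probe set lower. Called higher were thus 2 of 8 tested member probe sets, against 9.22% of all tested, and called lower 1 of 8, against 23.4% of all (32.6% in either direction). The split of all calls turned with the scaling here too, with 2565 higher and 6505 lower in the main setting. Median scaling gave 8773 higher and 979 lower, quantile normalization 1422 higher and 1378 lower, and hybridization control scaling 92 higher and 19868 lower. Of the members' calls, 3 of 3 were higher under median scaling and 0 of 4 with hybridization control scaling. The Bmp15 probe set (adjusted p = 0.0372 by limma) was under background in both groups, and its call ended under 5 of the alternatives and without any of 4 single arrays. Dppa3 averaged 12884 ± 939 in Ca-free medium and 10737 ± 507 after 20 pulses (SD, n = 4 each), a log2 change of 0.26 (95% interval 0.14 to 0.38, adjusted p = 0.00433 by limma). The median change of all tested probe sets was -0.17, so Dppa3 stood 0.43 above it. That median depended on brightness: with a minimum mean signal of 300 it was -0.023, and Dppa3 is far brighter than that minimum. The call of Dppa3 ended under quantile normalization (log2 change 0.07). With scaling to the hybridization controls its change turned to -0.11 and was not called.

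Oosp1 averaged 918 ± 181 in Ca-free medium and 618 ± 61.3 after 20 pulses (SD, n = 4 each), a log2 change of 0.53 (95% interval 0.24 to 0.82, adjusted p = 0.0106 by limma). It was higher under all 4 scalings tried and with any of the 8 arrays left out, where the change lay between 0.44 and 0.63 and was called each time. With scaling to the hybridization controls the change was 0.18 and was not called. Zar1 averaged 326 ± 31.7 in Ca-free medium and 386 ± 6.78 after 20 pulses (SD, n = 4 each), and its change of -0.23 was not called (95% interval -0.42 to -0.03, adjusted p = 0.0749 by limma). Zar1 turned to 0.12 under median scaling, again without a call, and was called lower with scaling to the hybridization controls (-0.56), without the intensity trend (-0.23) and without Ca-free array 1 (-0.29).

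In Ca-free medium against control, 0 of the 8 member probe sets were called higher, against 10.6% of all tested, and 1 was called lower by limma, against 29.7% of all (40.3% in either direction). The split of all calls turned with the scaling, with 2944 higher and 8249 lower in the main setting. Median scaling gave 10263 higher and 1517 lower, quantile normalization 2747 higher and 2755 lower, and hybridization control scaling 768 higher and 13773 lower. The members followed, with 4 of 4 calls higher under median scaling and 0 of 3 with hybridization control scaling. The member called lower in the main setting was the brightest Bmp15 probe set (adjusted p = 0.0171), under background in both groups, and its call ended under quantile normalization, under median scaling, against controls 1 and 2 only, against controls 3 and 4 only and without Ca-free array 4. At an unadjusted p under 0.05 it was also the only member. The share of all tested probe sets at that unadjusted threshold was not worked out. Dppa3 changed by 0.07 on the log2 scale (95% interval -0.05 to 0.19, adjusted p = 0.329), Oosp1 by 0.14 (-0.15 to 0.43, adjusted p = 0.435) and Zar1 by -0.14 (-0.33 to 0.06, adjusted p = 0.254 by limma). The median change of all tested probe sets was -0.18, and -0.00160 with a minimum mean signal of 300. The signs of these 3 changes followed the scaling. Under median scaling Dppa3 was at 0.48, Oosp1 at 0.54 and Zar1 at 0.24, all called higher. With hybridization control scaling they were at -0.14, -0.06 and -0.32, and Zar1 alone was called.

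After 20 pulses against control, limma called 0 of the 8 member probe sets, against 1.48% of all tested (1.10% higher and 0.374% lower). At an unadjusted p under 0.05 there were 2, Dppa3 and Oosp1, again without the share of all tested at that threshold. Dppa3 averaged 10737 ± 507 after 20 pulses and 12265 ± 515.02 in control (SD, n = 4 each), with a log2 change of -0.19 (95% interval -0.31 to -0.07, adjusted p = 0.0988 by limma). Although all 4 arrays of 20 pulses lay below all controls, this did not pass the threshold. Oosp1 averaged 618 ± 61.3 after 20 pulses and 827 ± 128 in control, and changed by -0.39 (-0.68 to -0.10, adjusted p = 0.168 by limma). Zar1 changed by 0.09 (-0.11 to 0.29, adjusted p = 0.688 by limma).

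**Figure D2:**
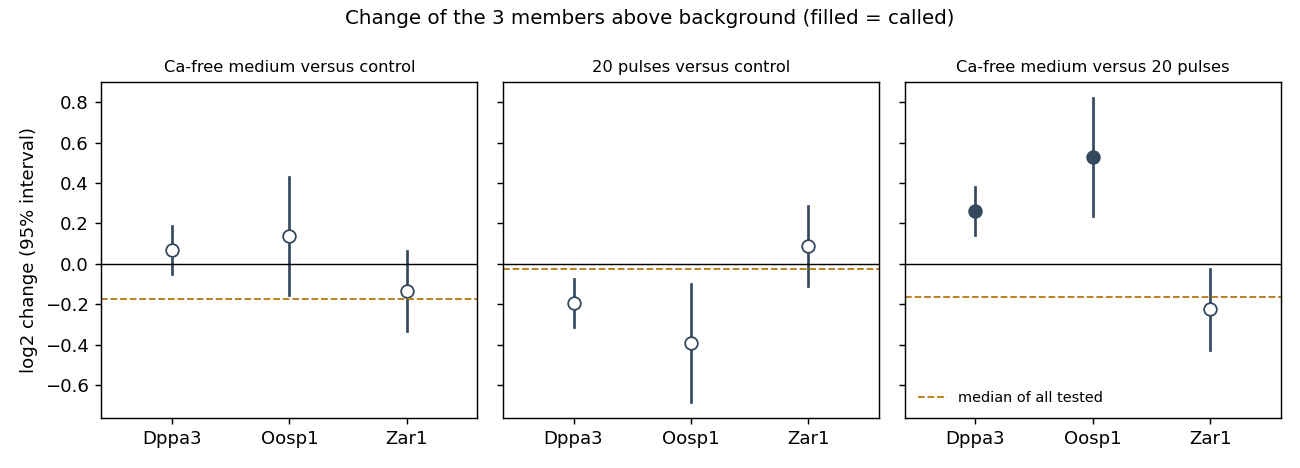
Log2 change with its 95% interval (vertical lines) of Dppa3, Oosp1 and Zar1 in each comparison, with filled points where limma called the change and the median change of all tested probe sets as a dashed line. Dppa3 (0.26) and Oosp1 (0.53) are called in Ca-free medium against 20 pulses, and with scaling to the hybridization controls neither is called and Dppa3 is at -0.11.

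The probe sets whose log2 signal followed that of Dppa3 most closely over the 12 arrays belonged to Rpl27, a ribosomal protein gene (Pearson r = 0.982), Cdk2ap1, a cell cycle regulator (0.978), and Anapc5, a subunit of the anaphase-promoting complex (0.977). After the group means were taken off, these values were 0.942, 0.937 and 0.928. These are descriptions over 12 arrays that share their groups and their scaling. All 3 are probe sets of the _x_at type, whose probes can bind other transcripts too.

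A longer list of oocyte genes gives the setting of the 10 members. Of 69 listed, 59 had a probe set, and 11 of these were above background on all 12 arrays, 12 on all 4 arrays of each single group. A further 36 were above background on no array, among them Zp1 and Zp2, the partners of Zp3 in the egg coat, and the oocyte transcription factors Figla, Nobox, Sohlh1 and Lhx8. The 11 detected throughout were Khdc3, Tcl1b3, Nlrp4c, Spin1, Ooep, Obox6, Nlrp4f, Tcl1, Fbxw22, Patl2 and Plat. By probe set, 14 of 73 were above background on all 12 arrays, against 26.5% of all 45037. In each single group 15 of 73 were, against 32.6% of all in Ca-free medium, 29.1% after 20 pulses and 28.0% in control.

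**Figure D3:**
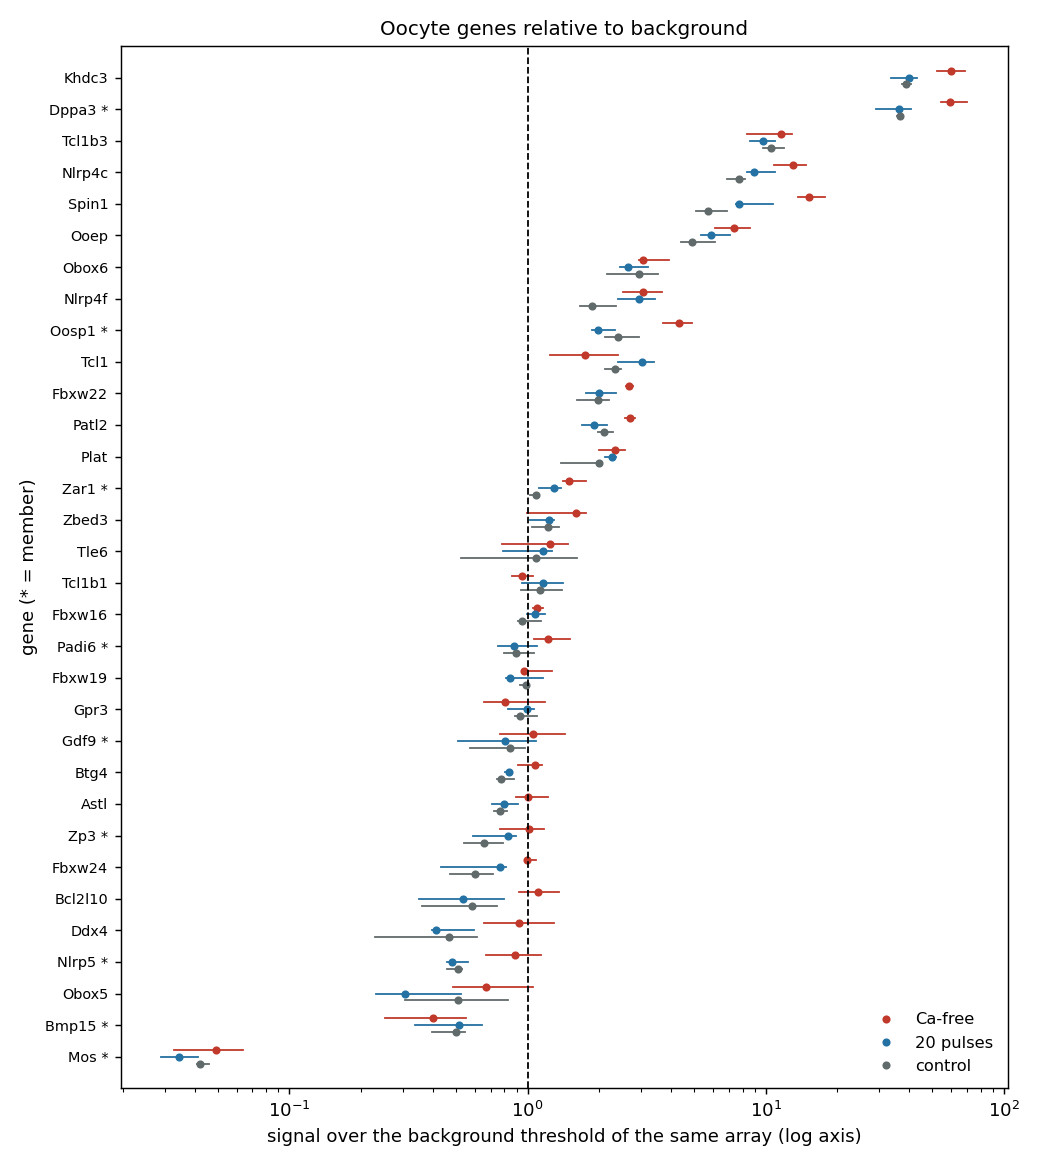
Signal over the background threshold of the same array (log axis) for the 9 members (starred) and for the other oocyte genes above background on at least 1 array, with the brightest probe set of each gene. Points are medians and lines the range of 4 arrays in Ca-free medium, after 20 pulses and in control, and the dashed line marks a ratio of 1. Khdc3 and Dppa3 stand far to the right, and most other genes lie around the line.

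Transcripts of proteins that form the subcortical maternal complex with Nlrp5 thus differed in how many arrays they passed the threshold on. Khdc3 (Filia), also known from embryonic stem cells, read 12741 ± 993 in Ca-free medium, 11902 ± 348 after 20 pulses and 13042 ± 702 in control, where these and the next values are mean ± SD with n = 4 each. The RNA-binding protein Ooep read 1554 ± 203 in Ca-free medium, 1833 ± 118 after 20 pulses and 1704 ± 222 in control. Nlrp4f, a relative of Nlrp5 in the complex, read 650.1 ± 102 in Ca-free medium, 881 ± 77.1 after 20 pulses and 648 ± 79.1 in control. Tle6, by contrast, was above background on 8 of 12 arrays and Nlrp5 on 2. Zbed3 passed on 11 arrays with 1 of its 4 probe sets and on none with the others. These values come from different probe sets and give no ranking of transcript amounts.

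The relatives of the members by sequence or by name were mostly not detected. Of 20 with a probe set, 6 were above background on all 12 arrays: Npm1, the nucleolar relative of Npm2, Nlrp4c and Nlrp4f of the Nlrp family, and Dppa2, Dppa4 and Dppa5a, pluripotency genes listed for a name like that of Dppa3. The other 14, including Padi1, Padi2, Padi3, Padi4, Oosp2 and Oosp3, were above background on no array. Of 19 maternal regulators that the embryo also transcribes, such as Ctcf, Trim28 and Uhrf1, 16 were above background on all 12 arrays, and only Zfp57 and Tet3 on none. By probe set, 8 of 23 for the relatives and 30 of 41 for these regulators were above it on all 12 arrays, against 26.5% of all.

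**Figure D4:**
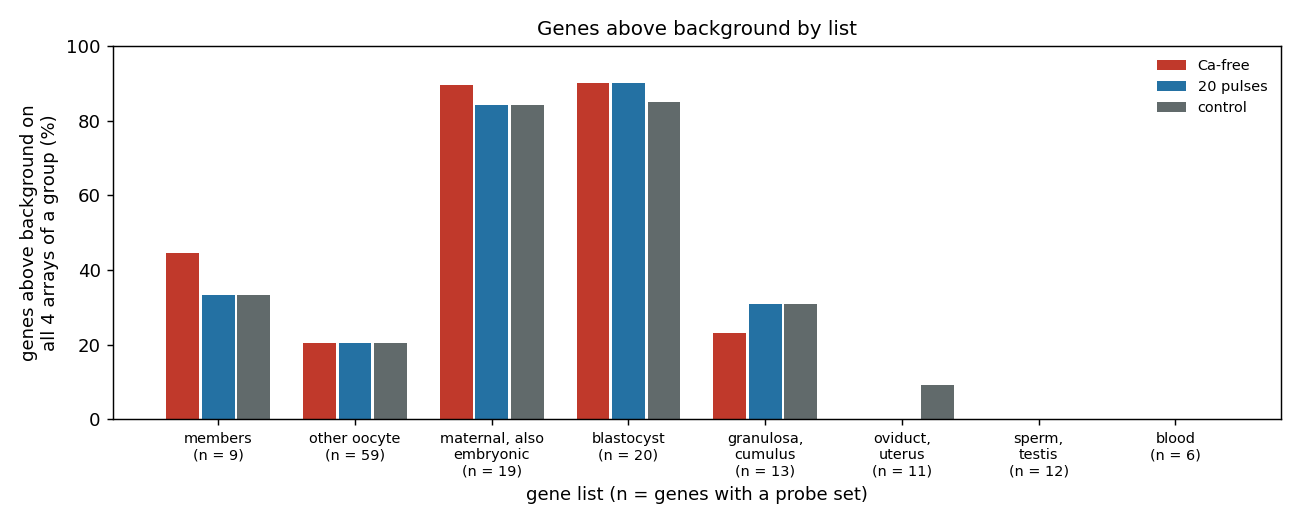
Share of genes (percent, axis from 0 to 100) with a probe set above background on all 4 arrays of a group, for 8 gene lists, with bars for Ca-free medium, 20 pulses and control. The members reach 4, 3 and 3 of 9 genes in these groups, the other oocyte genes 12 of 59 in each, the blastocyst markers 18, 18 and 17 of 20, and the sperm, testis and blood lists 0. The tissue-restricted list, with 5 of 40 genes above background on all 12 arrays, is not drawn.

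Among the other oocyte genes, Tcl1, a coactivator of the kinase AKT in oocytes and pluripotent cells, was lower in Ca-free medium. It read 375, 276, 518 and 337 in Ca-free medium, 1074, 827, 936 and 755 after 20 pulses, and 763, 811, 715 and 799 in control. All Ca-free arrays were below all others. The log2 change was -1.21 against 20 pulses (adjusted p = 4.59e-04) and -1.01 against control (adjusted p = 4.40e-04 by limma), and both were called under every alternative run, the 4 scalings and each array left out included. Tcl1b3, from the same gene cluster, averaged 2348 ± 373 in Ca-free medium against 3577 ± 424 in control, with SD over 4 arrays each, and changed by -0.61 on the log2 scale (adjusted p = 0.00290 by limma). Its call ended under median scaling (-0.20). Its probe set is of the _x_at type, and the near-identical genes of the cluster may share its signal.

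Of the 42 tested probe sets of the longer list, 2 were called higher and 13 lower in Ca-free medium against control, against 10.6% higher and 29.7% lower of all tested, with a median change of -0.28, beside the median of -0.18 of all probe sets. Against 20 pulses, 1 was called higher and 8 lower, against 9.22% higher and 23.4% lower of all tested, with a median of -0.23 beside -0.17. After 20 pulses against control limma called 0 of 42, against 1.48% of all tested. At an unadjusted p under 0.05 there were 6, and the share of all tested at that threshold was not worked out. The split of the calls at adjusted p followed the scaling. In Ca-free medium against control, 9 of 12 calls were higher under median scaling and 3 of 9 under quantile normalization. With hybridization control scaling 2 of 27 were higher. Against 20 pulses it was, in the same order, 10 of 12, 1 of 3 and 0 of 32.

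The probe sets called higher were those of Spin1, a chromatin reader that acts in the meiotic spindle of the oocyte and is also expressed by the embryo. The brightest of its 4 probe sets averaged 3265 ± 224 in Ca-free medium against 1960 ± 222 in control, with SD over 4 arrays each, a log2 change of 0.73 (adjusted p = 2.24e-04 by limma). The next brightest changed by 0.46 (adjusted p = 0.00108). The other 2 Spin1 probe sets were not called and read 451 ± 100.3 and 735 ± 30.3 in Ca-free medium and 493 ± 30.3 and 791 ± 67.0 in control. Obox6, a gene of the Obox homeobox family, changed by -0.47, and Patl2, a repressor of stored mRNA, by -0.29 (adjusted p = 0.0158 and 0.0354 by limma). The call of Obox6 ended under median scaling (-0.07), against controls 3 and 4 only (-0.29) and without control 1. That of Patl2 ended under quantile normalization (-0.22), against either pair of controls and without any of 6 single arrays, and Patl2 turned to 0.10 under median scaling. Against 20 pulses, Nlrp4f changed by -0.43 and the protease Plat by -0.46 (adjusted p = 0.0124 and 0.0154 by limma), and the brightest Spin1 probe set by 0.36 (adjusted p = 0.0105). All 3 of these calls ended under quantile normalization. Those of Nlrp4f (-0.07) and Plat (-0.10) ended under median scaling too, and that of Plat without array 2 of 20 pulses. Spin1 was at -0.00530, without a call, with hybridization control scaling.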

How the data were processed

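Blastocyst RNA was isolated with an Arcturus kit, per the labels. The values the authors deposited are linear intensity, made with MAS5 per the submitters' processing notes (version not given in the sources used here), with every array at the same 2% trimmed mean of 150.001. Detection calls were not used here. The table holds 45037 probe sets and 64 array controls. GEO's platform annotation, whose build is not given, named 1 gene for 34945 probe sets, several for 932 and none for 9160, and 34741 were matched to RefSeq (GRCm38.p6) for names.

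Arrays were scaled to a 2% trimmed mean of 500. The comparisons used limma (version 3.58.1, R 4.3.3) on log2(signal + 32), leaving out probe sets averaging under 100. They came from 1 model of all 12 arrays with 3 contrasts and eBayes with an intensity trend. The fit was also run on simulated arrays with independent noise and no scaling difference between groups. That run cannot show how calls depend on the scaling. Background was set by 87 probe sets of 78 sensory receptor genes. Precision is limited by having 4 arrays a group. Promoter sequences are RefSeq's (GRCm38.p6).

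All member probe sets are described. Of the longer list, genes above background on all 12 arrays are named (at most 12), with up to 6 called probe sets in a comparison by adjusted p that were above background on all 4 arrays of the higher group; the 3 likest patterns to the brightest member, relatives on all 12 arrays and marker counts follow. Singled out after their values were seen were the genes on 0 arrays, Tle6, Zbed3 and the uncalled Spin1 probe sets. The members, gene lists and tests were chosen with earlier results of these data known.

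Alternatives were quantile, median and hybridization control scaling, added values of 1 and 100, no minimum and a minimum of 300, no intensity trend, array weights, a replicate block, models of the 8 arrays compared, controls 1 and 2 or 3 and 4 only, each array left out in turn, and other background rules (90th and 99th percentile, tissue-restricted genes, 3 of 4 arrays, group means).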

Additional observations from a re-analysis of the deposited data

Results flagged for a closer look

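In 33 groups of 4 arrays (11 probe sets in 3 groups), 2 held an array far from the other 3, and chance flags about 1 group in 20. Zar1 read 373 on Ca-free array 1, with the other Ca-free arrays at 305 to 316. The dimmest Bmp15 probe set read 62.0 on array 4 of 20 pulses, with the others at 19.2 to 20.4, all under background.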

How the results depend on the processing

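In Ca-free medium the number of member probe sets above background was 2, against 4 in the main setting, with the 99th percentile or with tissue-restricted genes as background. After 20 pulses and in control it was also 2 there, against 3. Other oocyte probe sets above background there (15) were 23 with the 90th percentile or group means. Left-out arrays gave for the members 4 to 5 there, and 3 throughout for 20 pulses and for control. Member calls in Ca-free medium against control, 1 in the main model, were 4 under median scaling, 3 with hybridization control scaling, and 0 with a minimum of 300 (where only 3 members were tested), with controls 1 and 2 only or with controls 3 and 4 only. They were 0 to 1 with each array left out, with 0 without Ca-free array 4. Calls against 20 pulses were 2 to 4 under all alternatives, but their direction was not kept: all 3 were higher under median scaling and all 4 lower with hybridization control scaling. Against control all 4 were higher under median scaling and all 3 lower with hybridization control scaling. For 20 pulses against control there were 0 under all of them.

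Some changes turned their sign. In Ca-free medium against control, Dppa3 was at -0.00247 under quantile normalization and -0.14 with hybridization control scaling, and Oosp1 at -0.0615 with hybridization control scaling and -0.0371 against controls 1 and 2 only. Zar1 moved to 0.10 with quantile normalization and to 0.24 with median scaling, and Patl2 at 0.10 under median scaling. Against 20 pulses, Dppa3 was at -0.11 and Spin1 at -0.00530 with hybridization control scaling, and Zar1 at 0.12 under median scaling. Apart from the scalings themselves, the causes were not tested.

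Replicate numbers are shared between groups. Deviations of arrays with the same number correlated little (mean r 0.0156, 1 of 12 pairs over 0.1), although 7 of 12 arrays correlated best with their own number. The model with a replicate block called 1, 0 and 3 member probe sets in the 3 comparisons, as without it. It called 1 of the other oocyte probe sets after 20 pulses, against 0 without it, and 227 of all probe sets, against 411.

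For all probe sets, calls in Ca-free medium against control (11193) were 5502 under quantile normalization, 5658 with a minimum of 300 and 6520 against controls 3 and 4 only. Against 20 pulses (9070) they were 2800 and 5080 with the first 2 of these and 19960 with hybridization control scaling, and after 20 pulses against control (411) they ranged from 155 without the intensity trend to 2160 with hybridization control scaling, and from 110 to 379 with single arrays left out. Calls of other oocyte probe sets in Ca-free medium against control (15) were 9, 27 and 7 with quantile normalization, hybridization control scaling and a minimum of 300, and against 20 pulses (9) they were 3, 32 and 5. After 20 pulses against control (0) they were 3, 2 and 3 with hybridization control scaling, a minimum of 300 and array weights.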
